A study of Rattus norvegicus with 32 samples.

Results

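The nucleus accumbens (NAc) was compared with the subventricular zone (SVZ) among rats exposed to methamphetamine (METH), gene by gene, to see which genes separate these regions of the forebrain after a binge of the drug. The comparison took the 4 NAc METH and the 4 SVZ METH RNA-seq libraries, of 32 libraries in the series, and every autosomal gene with enough reads, which was 14479 of the 27159 autosomal genes counted. All rats were adult male Sprague-Dawley animals. The METH groups received 4 intraperitoneal injections of 10 mg/kg, spaced 2 h apart, and the saline (Sal) groups of the same regions, with 4 libraries each, received the vehicle on that schedule. Brains were taken the day after the last injection, and NAc and SVZ tissue was punched from slices, so every library is a mixture of the cells in its punch. Nothing in the labels says that the replicates of a group are separate animals, and p-values measure the spread between these libraries only. By the methods both regions were cut from the anterior section of a brain. NAc and SVZ libraries may therefore share rats, which the labels do not say and the main fit does not use.

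The NAc is the ventral part of the striatum and a main target of dopamine neurons of the midbrain. Most of its neurons are medium spiny neurons, inhibitory cells that carry dopamine D1-type receptors with substance P and dynorphin (direct pathway) or D2-type receptors with enkephalin (indirect pathway). The SVZ lies along the wall of the lateral ventricle, next to the striatum. It holds neural stem cells that resemble astrocytes, dividing progenitors, neuroblasts that migrate to the olfactory bulb, and a sheet of ependymal cells whose motile cilia move the cerebrospinal fluid. The choroid plexus, which secretes that fluid, the septum and myelinated tracts are close neighbours of the SVZ.

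No gene separated NAc METH from SVZ METH at the threshold the study used for differences between regions, a false discovery rate (FDR) under 0.01 and a fold change above 2. By edgeR's quasi-likelihood test 0 of 14479 genes were called (0.0%), the lowest FDR was 0.0601, and 77 genes had an FDR under 0.1. Genes with an unadjusted p under 0.05 numbered 2814 (19.4%) and are called nominal below. Of these, 1225 had the higher level in NAc METH (8.46% of all genes tested) and 1589 the lower level (11.0%). Fold changes above 2 were measured for 1063 genes, 386 higher and 677 lower in NAc METH, while the median log2 fold change (NAc METH over SVZ METH) over all genes was −0.0021. DESeq2 on the same counts called 156 genes (1.08%), 31 of them among the 98 genes named below. With 1 RUVr factor edgeR called 111 genes, and with 2 factors 263. The 2 groups of libraries did not overlap in 1430 genes (9.88%), with NAc METH above SVZ METH in 713 (4.92%) and below it in 717 (4.95%). Each value below is therefore given with the library levels it rests on, in CPM (the reads of a gene relative to the size of the library after upper-quartile scaling).

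**Figure D1:**
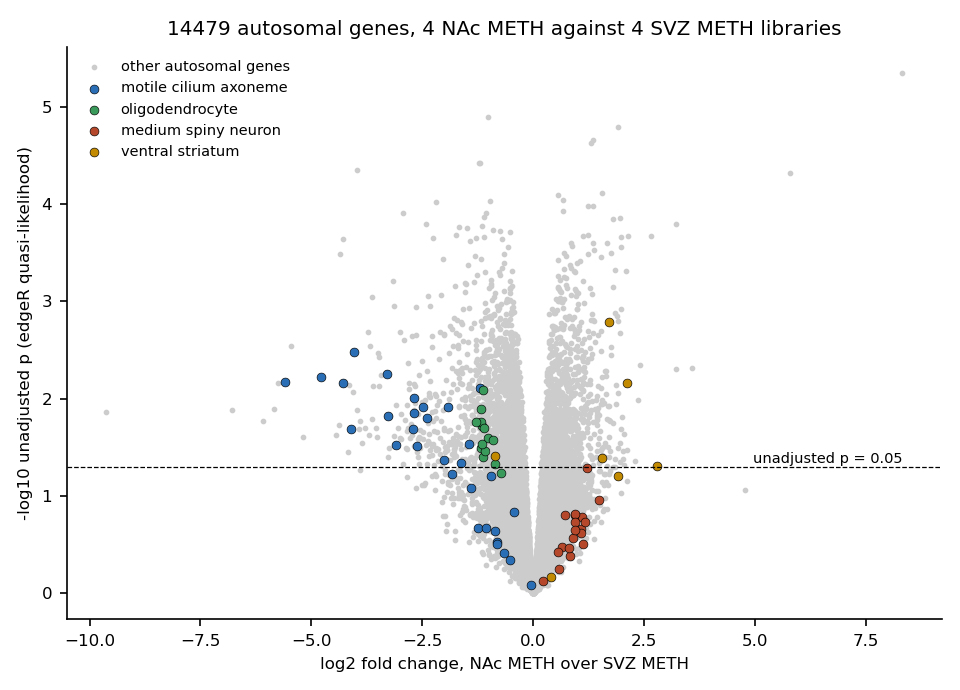
Log2 fold change (NAc METH over SVZ METH, x axis) and −log10 of the unadjusted edgeR quasi-likelihood p (y axis) of 14479 autosomal genes, 1 point per gene, with genes of 4 lists in colour and a dashed line at the 0.05 level. Motile cilium genes (blue) and oligodendrocyte genes (green) lie on the left, 19 and 13 of them above the line, and the medium spiny neuron genes (red) lie on the right with 0 above it.

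The libraries of a group differed from each other in their levels of cell type markers, and several results below rest on a few of them. Total counts were 11802864 to 14156910 reads in NAc METH and 17379234 to 21869773 in SVZ METH, and the common biological coefficient of variation of the 8 libraries was 0.310. In the headers, SVZ METH 1 and 2 carry the library number 1669 and SVZ METH 3 and 4 the number 1670, and the names of replicates 2 and 4 also hold the word EXTRA, which the labels do not explain. If a number stands for a rat, the SVZ METH group holds 2 rats rather than 4. Libraries with the same number were not repeats of each other: a chi-square test on their counts gave 133 per gene for SVZ METH 1 and 2 and 115 for 3 and 4, against 16.4 for the 2 EXTRA libraries. The headers also hold names that are taken here as sequencing runs, though the headers do not define them. The methods state 2 sequencing batches. NAc and SVZ libraries shared no such name, so run and region cannot be told apart. By these names NAc METH 1 and 2 came from another run than NAc METH 3 and 4. NAc Sal 1 and 2 likewise came from another run than NAc Sal 3 and 4. Mitochondrial reads made up 23.8% and 19.4% of NAc METH 1 and 2, and 12.8% and 11.8% of NAc METH 3 and 4. The spread within the NAc groups thus includes differences between runs, if any, and their effect was not tested.

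The 2 SVZ METH libraries without EXTRA in their name (1 and 3) and the 2 with it (2 and 4) differed in the genes of the motile cilium, the organelle of ependymal cells. The summed level of 31 such genes was 1067 and 1134 CPM in SVZ METH 1 and 3, 172 and 144 CPM in SVZ METH 2 and 4, and 191, 205, 267 and 163 CPM in NAc METH 1 to 4. By this measure the EXTRA libraries stood at the level of the accumbens. Both libraries without EXTRA were above both EXTRA libraries in 31 of the 31 genes, beside 31.1% of all genes tested. Markers of myelinating oligodendrocytes ran the other way, with sums of 8220 and 7196 CPM in SVZ METH 1 and 3 and 21806 and 22501 CPM in SVZ METH 2 and 4, and both EXTRA libraries were higher in 14 of 14 genes, beside 26.0% of all genes. In the saline group the EXTRA libraries are SVZ Sal 1 and 2, with cilium sums of 272 and 430 CPM against 618 and 1953 CPM in SVZ Sal 3 and 4. Their oligodendrocyte sums were 15797 and 3252 CPM against 7436 and 6260 CPM, so SVZ Sal 2 was the lowest and the opposite pattern of the METH libraries did not hold there.

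In the accumbens, NAc METH 3 stood apart. The summed level of 19 medium spiny neuron genes was 8015, 9330 and 9118 CPM in NAc METH 1, 2 and 4 but 991 CPM in NAc METH 3, which was the lowest of its group in 19 of 19 genes, beside 31.8% of all genes. The same library was the highest of its group in 14 of 14 oligodendrocyte genes, beside 39.8% of all genes. Medium spiny neuron genes were thus low in 1 library of the accumbens, and cilium genes in the EXTRA libraries of the SVZ, and results on these genes are given with and without those libraries. In whole tissue, fewer cells of a type and less RNA per cell cannot be told apart.

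**Figure D2:**
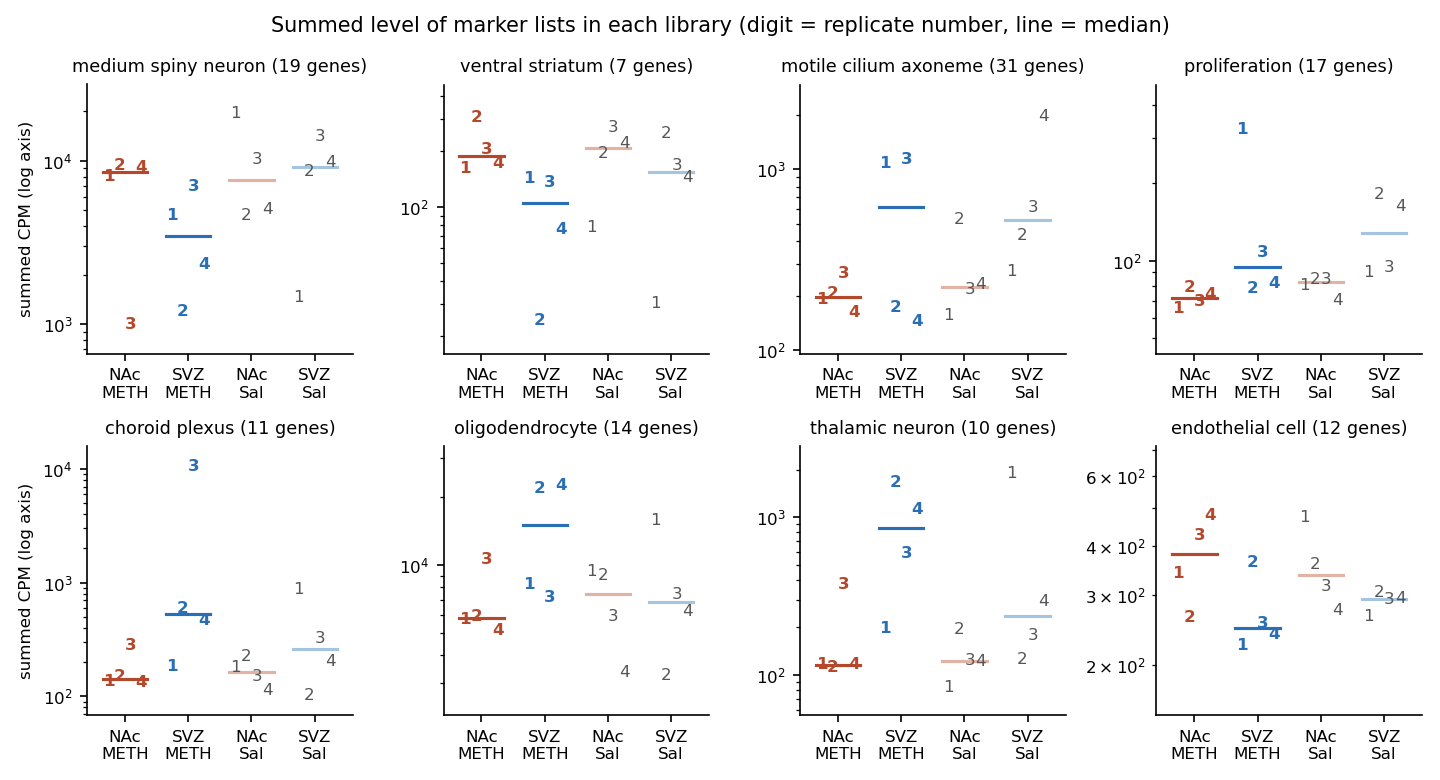
Summed CPM (y axes, log scale) of 8 marker lists in the 16 NAc and SVZ libraries, where each digit is a library's replicate number and each line a group's median (red NAc METH, blue SVZ METH, pale colours and grey digits saline). SVZ METH 1 and 3 lie above SVZ METH 2 and 4 in the motile cilium panel (1067 and 1134 against 172 and 144 CPM) and below them in the oligodendrocyte panel, and NAc METH 3 is the low value of the medium spiny neuron panel at 991 CPM.

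Genes of the motile cilium had the lower level in NAc METH throughout. Of the 38 genes listed, 35 are in the files and 31 were tested, all 31 had a negative log2 fold change, with a median of −1.93, and 19 were nominally lower (11.0% of all genes) while 0 were nominally higher. NAc METH lay below SVZ METH without overlap in 3 of the 31 (4.95% of all genes). Dnah1, a dynein heavy chain that drives ciliary beating (chromosome 16, 7345978 to 7408265 on rn6), measured 1.52, 1.75, 2.84 and 0.881 CPM in NAc METH 1 to 4 and 58.9, 4.57, 48.5 and 3.71 CPM in SVZ METH 1 to 4. The SVZ was above the NAc in every library, but by far more in replicates 1 and 3, and the log2 fold change was −4.04 (SE 1.00, FDR 0.134).

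Ccdc40, needed to assemble the dynein arms and regulatory complexes of the axoneme, had a mean of 1.45 ± 0.427 CPM (SD, n = 4) in NAc METH and 14.5 ± 14.1 CPM (SD, n = 4) in SVZ METH. Its SVZ levels were 24.0, 2.94, 29.1 and 1.95 CPM, so the SD of the SVZ group was as large as its mean, and the log2 fold change was −3.30 (SE 0.90, FDR 0.149). Dnah6, a further dynein heavy chain, measured 58.0 and 50.7 CPM in SVZ METH 1 and 3 but 3.15 and 0.905 CPM in SVZ METH 2 and 4, beside 0.525 to 2.06 CPM in NAc METH. Here the groups overlapped, since SVZ METH 4 lay below NAc METH 3, and the log2 fold change was −4.78 (SE 1.31, FDR 0.152). Cfap44, a ciliary and flagellar protein on chromosome 11 (61162628 to 61234944), measured 0.572, 0.175, 1.56 and 0.0678 CPM in NAc METH 1 to 4 and 52.3, 2.52, 63.1 and 0.524 CPM in SVZ METH 1 to 4. Its log2 fold change of −5.60 (SE 1.57, FDR 0.155) was the lowest of the list and rests on SVZ METH 1 and 3.

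The choice of SVZ libraries decided what the cilium genes showed. Against SVZ METH 1 and 3 alone, 33 genes could be tested and the median log2 fold change was −2.88. Of the 33, 32 were nominally lower in NAc METH (8.78% of all genes in that fit). In this split, made after the data were seen, 6 were called, beside 30 of all 14910 genes. Dnah1 was among the 6 at −4.93 (edgeR quasi-likelihood FDR 0.00502). Against SVZ METH 2 and 4 alone, 29 genes could be tested, the median was 0.12, with 5 nominally higher (17.5% of all genes) and 2 nominally lower (16.2%), with Dnah1 at −1.24 (FDR 0.0902). Without NAc METH 3, whose cilium sum was the highest of its group, the median over 32 genes was −2.18 and 20 were nominally lower (14.4% of all genes).

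**Figure D3:**
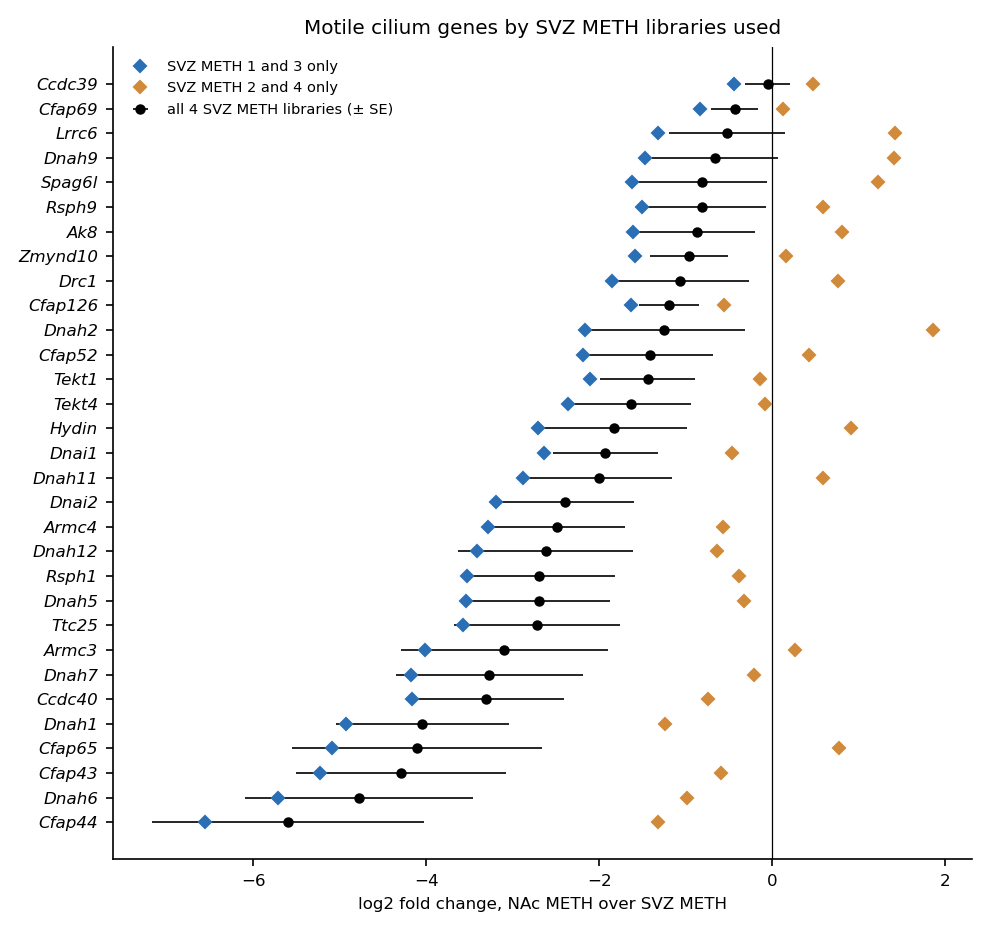
Log2 fold change (NAc METH over SVZ METH, x axis) of the 31 motile cilium genes tested (y axis), with black points and bars for all 4 SVZ METH libraries (± SE), blue diamonds for SVZ METH 1 and 3 only and orange diamonds for SVZ METH 2 and 4 only, which are missing for Dnai2 and Ttc25. Black and blue values lie below 0 for every gene, while the orange values scatter about 0 with a median of 0.12.

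Cilium genes are known targets of RFX transcription factors, whose binding site, the X-box, holds the half-site GTTGCC and its reverse complement as an imperfect palindrome. Since these genes differed together across libraries, the promoters of a few are shown. RefSeq promoters (build GRCr8) were matched for 25 of the 31 genes, and the 250 bases before each start were searched for GTTGCC on both strands. The half-site was in a promoter of 9 of the 25 genes, beside 9.89% of all 33469 promoters. The first count is by gene and the second by promoter. A gene with several promoters has more chances of a match, so the shares are not of like kind. It was chosen after the values were known and after longer spellings of the palindrome had been looked at. The 4 genes with the smallest p among the 9 are printed 5′ to 3′ on the gene's strand, from 30 bases before the match to 30 after it or to the start, with the match in capitals.
Cfap44, chr11:69789906-69789944, minus strand: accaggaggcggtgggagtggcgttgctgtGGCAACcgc
Dnai2, chr10:100258937-100259002, plus strand: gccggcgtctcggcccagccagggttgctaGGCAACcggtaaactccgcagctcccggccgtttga
Tekt1, chr10:57479125-57479190, minus strand: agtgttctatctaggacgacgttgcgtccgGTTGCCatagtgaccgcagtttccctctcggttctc
Dnah11, chr6:145213734-145213799, minus strand: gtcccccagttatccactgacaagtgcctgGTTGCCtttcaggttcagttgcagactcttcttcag

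A match is a run of letters and not a measured site. Dnai2, an intermediate chain of the outer dynein arm, measured 0.191, 0.700, 0.568 and 0.339 CPM in NAc METH 1 to 4 and 4.17, 0.683, 4.23 and 0.524 CPM in SVZ METH 1 to 4. Dnai2 had a log2 fold change of −2.39 (SE 0.80, FDR 0.185). Tekt1, a tektin of the microtubule wall, measured 2.57, 3.41, 4.40 and 2.37 CPM in NAc METH 1 to 4 and 9.68, 3.36, 17.9 and 3.67 CPM in SVZ METH 1 to 4. For Tekt1 the log2 fold change was −1.44 (SE 0.55, FDR 0.217). Dnah11, a dynein heavy chain of the outer arm, measured 4.48, 9.18, 10.5 and 7.19 CPM in NAc METH 1 to 4 and 49.3, 5.94, 66.4 and 4.48 CPM in SVZ METH 1 to 4. The fit gave Dnah11 a log2 fold change of −2.01 (SE 0.84, FDR 0.244). In all 3 genes SVZ METH 1 and 3 lay above every NAc library, while SVZ METH 2 and 4 lay within the NAc range or at its edge.

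Of 12 ependymal cell markers, 6 were tested, and 4 of the 6 were nominally lower in NAc METH (11.0% of all genes) while 0 were nominally higher. The median log2 fold change was −2.24. Ak7, an adenylate kinase of cilia (chromosome 6, 129538982 to 129606932), had 0 reads in 3 of the 4 NAc METH libraries and 0.781 CPM in NAc METH 3, and measured 20.6, 1.47, 24.6 and 0.381 CPM in SVZ METH 1 to 4. Ak7 had a log2 fold change of −5.76 (SE 1.62, FDR 0.155). Ccdc153, a coiled-coil gene used as an ependymal marker, measured 16.1 and 17.4 CPM in SVZ METH 1 and 3 and 0.893 and 0.333 CPM in SVZ METH 2 and 4, against 0.610 to 1.33 CPM in NAc METH, so SVZ METH 4 lay below all NAc libraries. For Ccdc153 the log2 fold change was −3.14 (SE 1.15, FDR 0.208). Against SVZ METH 2 and 4 alone, the median of the 6 genes was 0.21 and 0 were nominal.

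Genes of dividing cells had lower fitted means in NAc METH than in SVZ METH, mostly through SVZ METH 1. Of 17 genes tested of the 20 listed, 16 had a negative log2 fold change, the median was −1.12, 10 were nominally lower (11.0% of all genes), 0 nominally higher, and 4 did not overlap (4.95% of all genes). The summed level was 65.5, 78.4, 69.5 and 73.7 CPM in NAc METH 1 to 4 and 321, 77.7, 108 and 81.9 CPM in SVZ METH 1 to 4. SVZ METH 1 held most of the signal. Cenpf, a kinetochore protein, measured 40.6, 1.26, 6.95 and 0.762 CPM in SVZ METH 1 to 4 against 0.858 to 1.22 CPM in NAc METH. The fit gave Cenpf a log2 fold change of −3.64 (SE 1.22, FDR 0.186).

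Kif11, the motor that separates the spindle poles, measured 0.700 to 1.49 CPM in NAc METH and 13.5, 1.89, 2.44 and 1.95 CPM in SVZ METH 1 to 4, without overlap. Kif11 had a log2 fold change of −2.19 (SE 0.73, FDR 0.185). Pcna, the sliding clamp of DNA polymerase, showed a smaller but more even difference, with 15.2 to 20.2 CPM in NAc METH and 28.1, 20.2, 26.3 and 27.0 CPM in SVZ METH 1 to 4. For Pcna the log2 fold change was −0.50 (SE 0.14, FDR 0.155). Aurka, a mitotic kinase, measured 5.60 ± 0.860 CPM in NAc METH and 8.48 ± 1.43 CPM in SVZ METH (SD, n = 4 each). The fit gave Aurka a log2 fold change of −0.60 (SE 0.19, FDR 0.173). Without SVZ METH 1 the median of the list was −0.42 and 4 genes were nominally lower (14.0% of all genes in that fit). Without SVZ METH 3 it was −1.29 and 9 genes were nominally lower (10.5% of all genes in that fit).

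Genes of neural stem cells gave a mixed picture. Of 19 tested of 20, 13 had a negative log2 fold change, and the median was −0.21. Of these 19, 4 were nominally lower in NAc METH (11.0% of all genes) and 1 was nominally higher (8.46%). NAc METH lay below SVZ METH without overlap in 3 (4.95% of all genes) and above it in 1 (4.92%). Fabp7, a fatty-acid-binding protein of radial glia and neural progenitors (chromosome 20, 40769586 to 40773349), measured 23.1, 12.6, 18.7 and 13.8 CPM in NAc METH 1 to 4 and 72.4, 31.6, 40.0 and 51.5 CPM in SVZ METH 1 to 4. Fabp7 had a log2 fold change of −1.52 (SE 0.29, FDR 0.104). All SVZ libraries, the EXTRA ones included, were above all NAc libraries. Sox2, a transcription factor that keeps neural stem cells undifferentiated, measured 50.4 to 75.9 CPM in NAc METH and 121, 82.5, 84.2 and 78.9 CPM in SVZ METH 1 to 4. For Sox2 the log2 fold change was −0.66 (SE 0.19, FDR 0.156).

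Notch2, a Notch receptor, measured 78.4 ± 15.7 CPM in NAc METH and 143 ± 53.9 CPM in SVZ METH (SD, n = 4 each). The fit gave Notch2 a log2 fold change of −0.87 (SE 0.26, FDR 0.163). Tnc, the matrix protein tenascin C of the stem cell niche, measured 11.7, 6.73, 30.4 and 18.2 CPM in NAc METH 1 to 4 and 127, 52.5, 41.4 and 28.4 CPM in SVZ METH 1 to 4, with an overlap of SVZ METH 4 and NAc METH 3. Tnc had a log2 fold change of −1.89 (SE 0.57, FDR 0.168). Against SVZ METH 2 and 4 alone the median of the list was 0.12. There 4 of 19 genes were nominally higher (17.5% of all genes in that fit) and 3 nominally lower (16.2%). Leaving out a library gave medians of −0.44 (SVZ METH 2) to −0.06 (SVZ METH 1).

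Of 17 neuroblast genes 14 were tested, with a median log2 fold change of −0.38. Of these, 2 were nominally lower in NAc METH (11.0% of all genes) and 1 was nominally higher (8.46%). Without SVZ METH 1 the median was 0.03. Sp8, a transcription factor of neuroblasts bound for the olfactory bulb, measured 0.191, 0.0874, 2.98 and 0.475 CPM in NAc METH 1 to 4 and 20.2, 2.58, 6.72 and 1.62 CPM in SVZ METH 1 to 4. For Sp8 the log2 fold change was −3.00 (SE 1.11, FDR 0.210). Stmn1, a microtubule destabiliser of young neurons, had a log2 fold change of −0.60 (SE 0.22, FDR 0.202). Pbx3, a homeodomain factor that mature striatal neurons also express, was the gene with the higher level in NAc METH, with 62.5 ± 16.2 against 37.5 ± 5.96 CPM (SD, n = 4 each). The fit gave Pbx3 a log2 fold change of 0.73 (SE 0.21, FDR 0.155).

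Choroid plexus genes had the lowest median of all lists, −3.90 over 11 genes tested of 14, and 8 were nominally lower in NAc METH (11.0% of all genes). This rested on a single library. The summed level was 136, 150, 277 and 134 CPM in NAc METH 1 to 4 and 185, 596, 10627 and 467 CPM in SVZ METH 1 to 4. Ttr, the thyroid hormone carrier that choroid plexus secretes (chromosome 18, 15532963 to 15540177), measured 0.270, 96.8, 7565 and 14.8 CPM in SVZ METH 1 to 4, and 0, 1.14, 8.37 and 0 CPM in NAc METH 1 to 4. Ttr had a log2 fold change of −9.62 (SE 3.11, FDR 0.180). Without SVZ METH 3 the median of the list was −0.40 and 3 genes were nominally lower (10.5% of all genes in that fit).

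Clic6, a chloride channel protein of this epithelium, measured 343 CPM in SVZ METH 3 and 2.05 to 7.04 CPM in the other SVZ METH libraries, against 0.136 to 4.12 CPM in NAc METH. For Clic6 the log2 fold change was −6.09 (SE 2.05, FDR 0.188). Slc4a5, a bicarbonate transporter, measured 106 CPM in SVZ METH 3 and 0.433 to 4.05 CPM in the other 3. The fit gave Slc4a5 a log2 fold change of −5.85 (SE 1.86, FDR 0.177). Enpp2, which makes lysophosphatidic acid and is found in oligodendrocytes as well as choroid plexus, measured 107, 117, 220 and 98.5 CPM in NAc METH 1 to 4 and 151, 433, 1782 and 406 CPM in SVZ METH 1 to 4. Enpp2 had a log2 fold change of −2.36 (SE 0.71, FDR 0.164).

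Oligodendrocyte genes had lower fitted means in NAc METH than in SVZ METH, and here the EXTRA libraries carried the difference. Of 14 genes tested of 17, all 14 had a negative log2 fold change, the median was −1.14, and 13 were nominally lower (11.0% of all genes), while the groups overlapped in all 14. Mag, a myelin adhesion protein (chromosome 1, 89345429 to 89360733), measured 235, 271, 458 and 234 CPM in NAc METH 1 to 4 and 387, 962, 366 and 1004 CPM in SVZ METH 1 to 4. SVZ METH 1 and 3 lay below NAc METH 3, SVZ METH 2 and 4 above all NAc libraries, and the log2 fold change was −1.19 (SE 0.40, FDR 0.188). Mal, a proteolipid of myelin, measured 188, 233, 288 and 147 CPM in NAc METH 1 to 4 and 346, 644, 261 and 637 CPM in SVZ METH 1 to 4. For Mal the log2 fold change was −1.14 (SE 0.33, FDR 0.161).

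Cldn11, the tight-junction protein of myelin sheaths, measured 264 ± 106 CPM in NAc METH and 598 ± 263 CPM in SVZ METH (SD, n = 4 each). The fit gave Cldn11 a log2 fold change of −1.18 (SE 0.38, FDR 0.177). Against SVZ METH 1 and 3 alone the median of the 14 genes was −0.27 and 0 were nominal. Against SVZ METH 2 and 4 alone it was −1.66 and 14 of 14 were nominally lower (16.2% of all genes in that fit). Oligodendrocyte progenitor genes had a median of −0.63 over 9 genes tested of 11 (−0.40 without SVZ METH 2). Of these, 3 were nominally lower (11.0% of all genes) and 2 without overlap (4.95%). Bmp4, a signalling ligand of newly committed oligodendrocytes, measured 4.96 to 8.73 CPM in NAc METH and 12.98, 17.9, 9.39 and 18.9 CPM in SVZ METH 1 to 4. Bmp4 had a log2 fold change of −1.10 (SE 0.27, FDR 0.134). Matn4, a matrilin of the extracellular matrix, had a log2 fold change of −0.90 (SE 0.23, FDR 0.141) without overlap, and Enpp6, a choline phosphodiesterase of newly formed oligodendrocytes, −1.34 (SE 0.41, FDR 0.171) with overlap.

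Medium spiny neuron genes had the higher level in NAc METH by the fitted means, with 19 of 19 log2 fold changes positive and a median of 0.94, but 0 were nominally higher (8.46% of all genes were) and 0 were without overlap. Foxp2, a transcription factor of these neurons, measured 131, 145, 21.4 and 116 CPM in NAc METH 1 to 4 and 66.2, 31.3, 51.5 and 30.1 CPM in SVZ METH 1 to 4. For Foxp2 the log2 fold change was 1.20 (SE 0.53, FDR 0.262). NAc METH 3 lay below every SVZ library, and the other 3 NAc libraries above every SVZ library. Adcy5, the main adenylyl cyclase of the striatum, measured 922, 1228, 175 and 1093 CPM in NAc METH 1 to 4 and 530, 207, 753 and 283 CPM in SVZ METH 1 to 4. The fit gave Adcy5 a log2 fold change of 0.94 (SE 0.60, FDR 0.392).

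The SVZ libraries held striatal markers too, in amounts that depended on the library. Ppp1r1b, which encodes DARPP-32, the phosphoprotein that relays dopamine signals in medium spiny neurons, measured 807, 1044, 42.6 and 1012 CPM in NAc METH 1 to 4 and 541, 71.9, 1092 and 231 CPM in SVZ METH 1 to 4. SVZ METH 3 was the highest of all 8 libraries and NAc METH 3 the lowest (log2 fold change 0.58, SE 0.97, FDR 0.755). Meis2, a homeobox gene of the developing and adult striatum, had a log2 fold change of 0.94 (SE 0.60, FDR 0.396). Without NAc METH 3 the median of the 19 genes was 1.28 and 10 were nominally higher (11.8% of all genes in that fit). Against SVZ METH 1 and 3 alone the median was 0.36 with 0 genes nominally higher (4.31% of all genes in that fit), and against SVZ METH 2 and 4 alone it was 2.12 with 11 nominally higher (17.5% of all genes).

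Both output pathways of the striatum gave values of this kind. The 8 direct-pathway genes had a median log2 fold change of 0.68 and the 7 indirect-pathway genes tested of 8 had 0.95, with 0 nominal genes in either list. Without NAc METH 3 the medians were 0.84 with 4 of 8 genes nominally higher (11.8% of all genes in that fit) and 1.23 with 1 of 8. Against SVZ METH 2 and 4 alone they were 1.301 with 4 and 1.90 with 2 nominally higher (17.5%), against SVZ METH 1 and 3 alone 0.49 and 0.19 with 0, and without SVZ METH 2 the indirect-pathway median was 0.50. Drd1, the dopamine D1 receptor (chromosome 17, 11101306 to 11103541), measured 194, 231, 7.45 and 228 CPM in NAc METH 1 to 4 and 84.0, 20.2, 131 and 37.3 CPM in SVZ METH 1 to 4. Drd1 had a log2 fold change of 1.27 (SE 0.90, FDR 0.438). Tac1, the substance P precursor (chromosome 4, 33638709 to 33646819), measured 108, 114, 19.4 and 118 CPM in NAc METH 1 to 4 and 43.4, 3.52, 65.5 and 15.8 CPM in SVZ METH 1 to 4. For Tac1 the log2 fold change was 1.48 (SE 0.83, FDR 0.343). In both genes 3 NAc libraries were above all SVZ libraries and NAc METH 3 was within or below them. Without NAc METH 3, the log2 fold change of Tac1 was 1.82 (SE 0.77, FDR 0.188).

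Pdyn, the precursor of dynorphin, measured 224, 302, 61.1 and 266 CPM in NAc METH 1 to 4 and 80.3, 13.6, 133 and 79.0 CPM in SVZ METH 1 to 4. The fit gave Pdyn a log2 fold change of 1.48 (SE 0.67, FDR 0.268). Of the 20 genes of cAMP signalling in the striatum, 18 had a positive log2 fold change, the median was 0.72 and 0 were nominal. Prkar2b, a regulatory subunit of protein kinase A, had a log2 fold change of 0.89 (SE 0.43, FDR 0.292), and Pde2a, a phosphodiesterase that degrades cAMP and cGMP, had 1.07 (SE 0.61, FDR 0.349). Without NAc METH 3, 8 of the 20 were nominally higher (11.8% of all genes in that fit).

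Several genes used as markers of the ventral striatum had the higher level in NAc METH. Of 7 tested of 8, 4 were nominally higher (8.46% of all genes) and 1 was nominally lower (11.0%) in NAc METH, and the median was 1.72. In 2 the NAc lay above the SVZ without overlap (4.92% of all genes). Drd3, the dopamine D3 receptor of the accumbens and islands of Calleja (chromosome 11, 61822077 to 61874327), measured 4.96, 6.65, 2.13 and 6.37 CPM in NAc METH 1 to 4 and 2.06, 1.63, 1.22 and 1.19 CPM in SVZ METH 1 to 4. Drd3 had a log2 fold change of 1.72 (SE 0.38, FDR 0.119). Cartpt, the precursor of the CART peptides, which psychostimulants regulate in the accumbens, measured 26.9, 42.9, 36.7 and 30.8 CPM in NAc METH 1 to 4 and 16.9, 1.58, 8.92 and 4.19 CPM in SVZ METH 1 to 4. For Cartpt the log2 fold change was 2.12 (SE 0.60, FDR 0.155). NAc METH 3, low in medium spiny neuron genes, was within its group for Cartpt and the lowest of it for Drd3.

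Nts, the neurotensin precursor, measured 38.0, 42.6, 22.2 and 30.1 CPM in NAc METH 1 to 4 and 11.0, 1.31, 9.30 and 23.3 CPM in SVZ METH 1 to 4, with an overlap of NAc METH 3 and SVZ METH 4. The fit gave Nts a log2 fold change of 1.56 (SE 0.65, FDR 0.242). Stard5, a sterol-binding protein, was the member with the lower level in NAc METH (log2 fold change −0.85, SE 0.35, FDR 0.237). Among the 8 opioid peptide and receptor genes the median was 1.12, or 0.58 without NAc METH 3. In all 8 libraries 2 were nominally higher (8.46% of all genes). Oprk1, the kappa receptor for dynorphin, measured 19.3, 26.3, 16.2 and 23.5 CPM in NAc METH 1 to 4 and 10.4, 0.999, 13.6 and 4.05 CPM in SVZ METH 1 to 4, without overlap (log2 fold change 1.55, SE 0.63, FDR 0.235), and Oprd1, the delta receptor, had a log2 fold change of 1.43 (SE 0.49, FDR 0.192) with overlap.

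Of 12 genes of dopamine receptors and metabolism, 8 were tested, and the median was 0.86, or 0.33 without NAc METH 3. Drd3 was the 1 nominal gene (8.46% of all genes were nominally higher). Ddc, the decarboxylase that makes dopamine from L-DOPA, measured 4.58, 5.51, 15.6 and 3.80 CPM in NAc METH 1 to 4 and 2.33 to 5.31 CPM in SVZ METH (log2 fold change 0.97, SE 0.48, FDR 0.297), so that its mean rests on NAc METH 3.

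Several lists marked neurons that neighbour the SVZ or the NAc. Thalamic neuron genes had a median log2 fold change of −1.56 over 10 genes. Of these, 4 were nominally lower (11.0% of all genes) and 2 without overlap (4.95%). Without NAc METH 3 these genes had a median of −2.66, with 6 nominally lower (14.4% of all genes in that fit). Their summed level was 116, 112, 374 and 116 CPM in NAc METH 1 to 4 and 198, 1647, 592 and 1111 CPM in SVZ METH 1 to 4. Prkcd, a protein kinase C isoform that thalamic relay neurons express strongly (chromosome 16, 6655120 to 6675746), measured 22.1, 22.9, 14.2 and 27.9 CPM in NAc METH 1 to 4 and 80.4, 818, 210 and 605 CPM in SVZ METH 1 to 4. Prkcd had a log2 fold change of −4.30 (SE 0.70, FDR 0.0799). The EXTRA libraries had the highest levels, but SVZ METH 1 and 3 were above all NAc libraries too, and against these alone the log2 fold change was −2.74 (SE 0.39, FDR 0.0249).

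Ramp3, a receptor activity-modifying protein, measured 1.43 to 2.98 CPM in NAc METH and 5.68, 52.6, 9.39 and 35.9 CPM in SVZ METH 1 to 4. For Ramp3 the log2 fold change was −3.64 (SE 0.73, FDR 0.108). Tcf7l2 and Lef1, transcription factors of the Wnt pathway found in thalamic neurons, had log2 fold changes of −2.50 (SE 0.64, FDR 0.141) and −3.42 (SE 0.93, FDR 0.151). For Lef1 the SVZ METH libraries measured 4.98, 117, 12.7 and 67.3 CPM and the NAc METH libraries 2.19 to 6.67 CPM, so SVZ METH 1 was within the NAc range.

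Septal neuron genes had a median of −1.08 over 8 genes, with 3 nominally lower (11.0% of all genes) and 2 without overlap (4.95%). The median was −0.62 without SVZ METH 1 and 0.07 against SVZ METH 2 and 4 alone. Zic1, a zinc-finger factor of the septum and its progenitors (chromosome 8, 98734295 to 98738446), measured 11.2, 10.2, 32.9 and 12.7 CPM in NAc METH 1 to 4 and 83.4, 95.5, 104 and 77.8 CPM in SVZ METH 1 to 4. The fit gave Zic1 a log2 fold change of −2.43 (SE 0.38, FDR 0.0799). All 4 SVZ libraries lay far above the NAc libraries, EXTRA or not, and without NAc METH 3 Zic1 passed the threshold (log2 fold change −2.99, FDR 0.00146). Its relatives Zic4 (log2 fold change −2.10, SE 0.48, FDR 0.123) and Zic2 (−1.37, SE 0.57, FDR 0.243) lay on the same side. The 10 genes of cortical glutamatergic neurons had a median of 0.25 and 0 were nominal. The sums ran from 140 to 822 CPM in NAc METH and from 134 to 981 CPM in SVZ METH, and without SVZ METH 1, which held the 981 CPM, the median was 2.04. Leaving out another library gave −0.17 (NAc METH 1) to 0.55 (NAc METH 2), so the sign of this median depended on the library.

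Cholinergic neuron genes had a median log2 fold change of 0.54 over 8 genes. Of these, 0 were nominally higher (8.46% of all genes) and 1, Zic4, was nominally lower (11.0%). Leaving out a library gave medians of 0.30 (SVZ METH 1) to 0.91 (SVZ METH 4). Lhx8, a LIM-homeobox gene of striatal cholinergic neurons, measured 9.53, 14.4, 15.0 and 6.71 CPM in NAc METH 1 to 4 and 2.65, 4.94, 3.76 and 11.3 CPM in SVZ METH 1 to 4. Lhx8 had a log2 fold change of 1.01 (SE 0.46, FDR 0.274). Slc5a7, the choline transporter, had a log2 fold change of 0.66 (SE 0.42, FDR 0.389). Against SVZ METH 1 and 3 alone, 6 of the 8 were nominally higher in NAc METH (4.31% of all genes in that fit) and the median was 1.73, while against SVZ METH 2 and 4 alone 0 were and the median was −0.067.

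Among interneuron genes, 13 were tested of 14, with a median of 0.24 (−0.10 without NAc METH 3 to 0.49 without SVZ METH 4). Of these, 1 was nominally higher (8.46% of all genes) and 3 nominally lower (11.0%). Pvalb, the calcium-binding protein parvalbumin, measured 18.5 to 27.7 CPM in NAc METH and 6.27, 232, 51.1 and 259 CPM in SVZ METH 1 to 4. For Pvalb the log2 fold change was −2.55 (SE 0.90, FDR 0.200). SVZ METH 1 was below all NAc libraries and the EXTRA libraries were far above them. Cck, the cholecystokinin precursor (chromosome 8, 130120523 to 130127392), measured 25.9, 8.22, 16.9 and 25.4 CPM in NAc METH 1 to 4 and 96.6, 235, 91.7 and 166 CPM in SVZ METH 1 to 4 (log2 fold change −2.95, SE 0.44, FDR 0.0799), so all SVZ libraries were above all NAc libraries. Lhx6, a factor of interneurons from the medial ganglionic eminence, had the higher level in NAc METH. The fit gave Lhx6 a log2 fold change of 0.91 (SE 0.36, FDR 0.230).

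The astrocyte, microglia and endothelial lists had positive medians, while the reactive astrocyte list and the oligodendrocyte and ependymal lists given above had negative ones. Astrocyte genes had a median log2 fold change of 0.26 over 14 genes (0.16 without NAc METH 3). Of these, 4 were nominally higher in NAc METH (8.46% of all genes) and 2 without overlap (4.92%). Glul, glutamine synthetase, measured 1217 ± 36.1 CPM in NAc METH and 931 ± 104 CPM in SVZ METH (SD, n = 4 each). For Glul the log2 fold change was 0.38 (SE 0.12, FDR 0.179). Slc1a3, a glutamate transporter, measured 799 ± 48.6 and 560 ± 135 CPM. The fit gave Slc1a3 a log2 fold change of 0.51 (SE 0.18, FDR 0.196). Slco1c1, a thyroxine transporter, had a log2 fold change of 0.68 (SE 0.25, FDR 0.204). All 14 microglia genes had a positive log2 fold change, from 0.07 to 0.52, and 1 was nominally higher (8.46% of all genes). It was Cx3cr1, the fractalkine receptor (log2 fold change 0.52, SE 0.17, FDR 0.184).

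Endothelial genes had a median of 0.64 over 12 genes tested of 14, with 5 nominally higher (8.46% of all genes) and 0 without overlap. Flt1, a VEGF receptor, measured 57.0, 35.3, 70.9 and 70.4 CPM in NAc METH 1 to 4 and 21.2, 49.0, 22.8 and 23.0 CPM in SVZ METH 1 to 4, and SVZ METH 2 alone overlapped the NAc. For Flt1 the log2 fold change was 1.01 (SE 0.33, FDR 0.180). Esam, an adhesion molecule of endothelial junctions, had a log2 fold change of 0.94 (SE 0.25, FDR 0.149). The 9 mural cell genes had a median of 0.0016 (−0.0034 under TMM scaling), and 2 were nominally higher (8.46% of all genes). Among them was Acta2, smooth muscle actin, with 4.22 ± 1.78 against 2.02 ± 0.273 CPM (SD, n = 4 each). For Acta2 the log2 fold change was 1.06 (SE 0.31, FDR 0.163). The 8 fibroblast and meninges genes tested had a median of 0.49 with 0 nominal.

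Reactive astrocyte genes had a median of −0.14 over 8 genes tested of 12, and 0.30 without SVZ METH 3. With all libraries, 1 gene was nominally higher in NAc METH (8.46% of all genes). This was Cd44, a hyaluronan receptor (log2 fold change 0.90, SE 0.27, FDR 0.163). Gfap, the intermediate filament of astrocytes, measured 615, 365, 1091 and 993 CPM in NAc METH 1 to 4 and 529, 713, 1366 and 782 CPM in SVZ METH 1 to 4 (log2 fold change −0.15, SE 0.39, FDR 0.856), and the spread within each region exceeded the difference between them. Immediate early genes had a median of 0.40 over 18 genes, and 0 were nominal. Without NAc METH 3 the median was 0.64 with 5 nominally higher (11.8% of all genes in that fit). Without SVZ METH 1 it was 0.68 with 4 nominally higher (1939 of 14451 genes in that fit). It was 0.25 without NAc METH 4 and 0.26 without SVZ METH 2. Against SVZ METH 2 and 4 alone it was 1.00 with 9 nominally higher (17.5%), and against SVZ METH 1 and 3 alone 0.02 with 0. Egr1, an activity-induced transcription factor, measured 184, 106, 46.1 and 135 CPM in NAc METH 1 to 4 and 120, 22.6, 70.9 and 38.3 CPM in SVZ METH 1 to 4 (log2 fold change 0.90, SE 0.56, FDR 0.379), with the lowest NAc value in NAc METH 3. Nr4a1, an activity-induced nuclear receptor, had a log2 fold change of 0.81 (SE 0.46, FDR 0.345) and Dusp1, a MAP kinase phosphatase, −0.75 (SE 0.39, FDR 0.318).

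Heat shock chaperones had a median of −0.43 over 11 genes tested of 13, with 3 nominally lower in NAc METH (11.0% of all genes). Hsp90aa1, the inducible cytosolic HSP90, measured 47.6, 31.3, 36.5 and 24.9 CPM in NAc METH 1 to 4 and 47.3, 65.1, 58.1 and 67.2 CPM in SVZ METH 1 to 4. The fit gave Hsp90aa1 a log2 fold change of −0.76 (SE 0.20, FDR 0.146). Dnaja1, a co-chaperone of HSP70, and Hspd1, the mitochondrial chaperonin, had log2 fold changes of −0.53 (SE 0.17, FDR 0.184) and −0.37 (SE 0.15, FDR 0.236). Of 16 genes of the interferon response and antigen presentation, 0 were nominal and the median was −0.11, with −0.34 without NAc METH 3 and 0.15 without NAc METH 1. B2m, the light chain of MHC class I, measured 141 ± 22.5 CPM in NAc METH and 157 ± 11.1 CPM in SVZ METH (SD, n = 4 each). B2m had a log2 fold change of −0.16 (SE 0.13, FDR 0.494).

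The genes with the smallest p among those without overlap and with at least 5 CPM in the higher group were in part genes of small and even differences. Among the 11 with the higher level in NAc METH, Tshz2, a zinc-finger transcription factor (chromosome 3, 166743544 to 166746597), measured 80.2, 68.6, 104 and 75.8 CPM in NAc METH 1 to 4 and 26.8, 33.2, 36.3 and 35.9 CPM in SVZ METH 1 to 4 (log2 fold change 1.31, SE 0.16, FDR 0.0601). It was above the SVZ in NAc METH 3 as in the other 3. Htr4, a serotonin receptor coupled to cAMP, measured 21.8, 25.3, 6.67 and 22.8 CPM in NAc METH 1 to 4 and 3.25, 1.73, 3.85 and 3.29 CPM in SVZ METH 1 to 4, the largest fold of the 11. For Htr4 the log2 fold change was 2.65 (SE 0.43, FDR 0.0799). NAc METH 3 was again the lowest accumbens library.

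Several of these genes are known from synapses. Adgrl3, the adhesion receptor latrophilin 3, measured 336 ± 24.7 CPM in NAc METH and 211 ± 10.6 CPM in SVZ METH (SD, n = 4 each; log2 fold change 0.67, SE 0.10, FDR 0.0799). Mdga1, which binds neuroligins, measured 46.0 ± 8.13 and 19.6 ± 3.77 CPM (log2 fold change 1.22, SE 0.18, FDR 0.0799). Cntnap5b, of the contactin-associated family, had a log2 fold change of 1.95 (SE 0.30) and Fam19a2, a secreted neuropeptide-like protein, 1.65 (SE 0.27), both at an FDR of 0.0799. The other 5 were the orphan receptor Gpr45 (log2 fold change 1.34), the RING-finger gene Rnft2 (0.57), the fatty acid elongase Elovl2 (0.84), the Fc receptor-like gene Fcrl2 (1.38) and the transcriptional coactivator Eya2 (1.76), at an FDR of 0.0799 to 0.0875.

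Among the 12 with the lower level in NAc METH were Cck and Zic1, given above. Grid2ip, a scaffold protein of glutamate receptors of the delta family (chromosome 12, 13221513 to 13251112), measured 1.62, 0.700, 2.41 and 2.64 CPM in NAc METH 1 to 4 and 12.1, 46.6, 35.9 and 22.8 CPM in SVZ METH 1 to 4. For Grid2ip the log2 fold change was −3.97 (SE 0.52, FDR 0.0731). It had the lowest log2 fold change of the 12, and every SVZ library was above every NAc library by more than the spread of the NAc group. P2rx6, a subunit of ATP-gated ion channels (chromosome 11, 87435185 to 87445219), measured 6.96, 6.47, 7.81 and 4.47 CPM in NAc METH 1 to 4 and 27.4, 18.4, 27.7 and 12.9 CPM in SVZ METH 1 to 4. The fit gave P2rx6 a log2 fold change of −1.75 (SE 0.28, FDR 0.0799).

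Trir, an exoribonuclease bound to telomerase RNA (chromosome 19, 26142720 to 26146136), showed how even a small difference could be, with 15.1 ± 0.526 CPM in NAc METH and 21.8 ± 0.274 CPM in SVZ METH (SD, n = 4 each). Trir had a log2 fold change of −0.54 (SE 0.09, FDR 0.0799). Its 4 SVZ libraries, EXTRA or not, lay between 21.5 and 22.1 CPM. Anxa4, an annexin of epithelial membranes, measured 5.93 ± 0.969 and 13.8 ± 1.06 CPM (log2 fold change −1.22, SE 0.16, FDR 0.0724). Rdx, the actin linker radixin, had a log2 fold change of −1.11 (SE 0.17), and Jam3, a junctional adhesion molecule, −1.10 (SE 0.18), both at an FDR of 0.0799. The other 4, at the same FDR, were the enolase Eno4 (log2 fold change −0.98), the aldo-keto reductase Akr1c19 (−1.68), the myosin heavy chain Myh7b (−0.91) and the tetraspanin Tspan11 (−2.27).

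**Figure D4:**
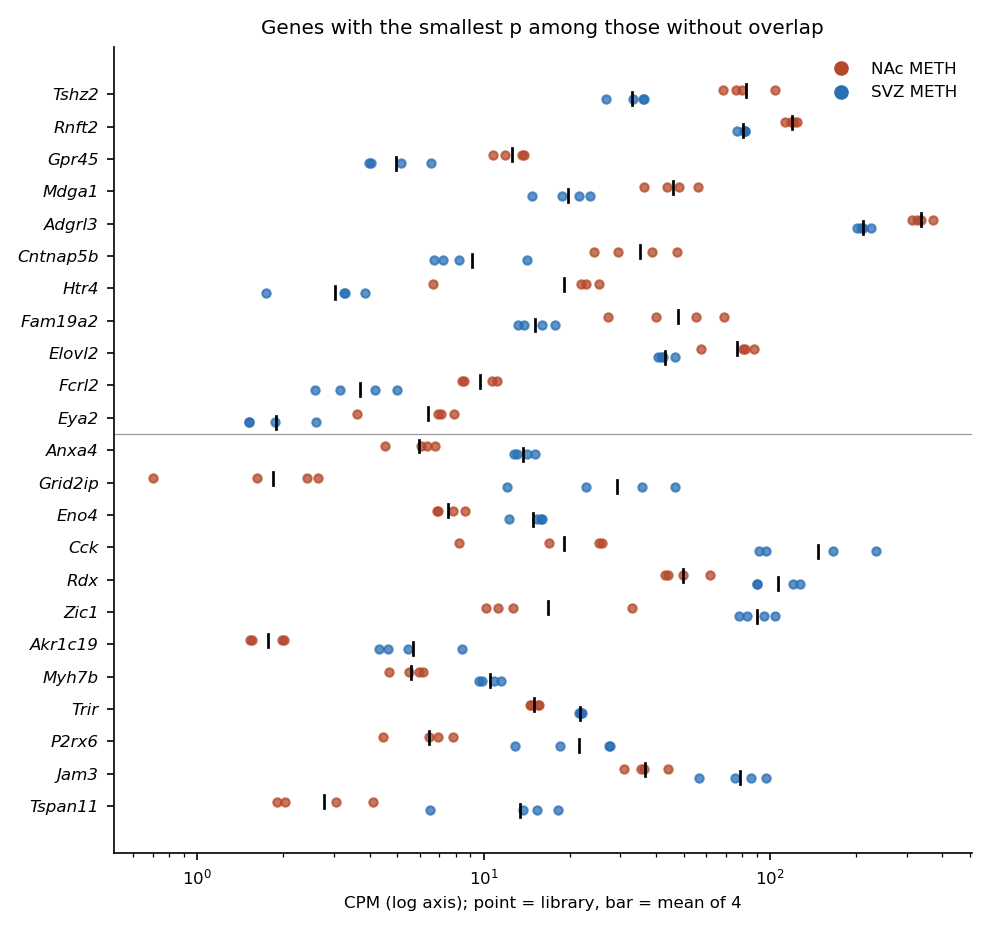
CPM (x axis, log scale) in each NAc METH (red) and SVZ METH (blue) library of 23 genes with the smallest p among genes whose groups do not overlap, 11 higher (above the grey line) and 12 lower in NAc METH, with a black bar at each group's mean. The libraries of Trir lie close together around 15.1 and 21.8 CPM, while NAc METH 3 falls towards the SVZ values for Htr4 (6.67 CPM) and Zic1 (32.9 CPM).

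The last genes were looked at because the paper names them for differences between regions or with METH. Neurod1, a transcription factor of hippocampal and cortical excitatory neurons, measured 5.05, 0.700, 1.92 and 3.86 CPM in NAc METH 1 to 4 and 8.82, 0.946, 0.188 and 0.619 CPM in SVZ METH 1 to 4. For Neurod1 the log2 fold change was 0.13 (SE 1.07, FDR 0.959). Rtn4rl2, a Nogo receptor family member, measured 19.8 CPM in SVZ METH 1 and 0.263 to 0.476 CPM in the other 3 SVZ METH libraries, against 12.4, 0.874, 3.05 and 9.76 CPM in NAc METH 1 to 4. The fit gave Rtn4rl2 a log2 fold change of 0.32 (SE 1.38, FDR 0.917). Nrn1, neuritin, a neurite growth factor induced by activity, measured 55.0, 5.33, 30.7 and 43.3 CPM in NAc METH 1 to 4 and 29.6, 100.3, 21.8 and 65.8 CPM in SVZ METH 1 to 4. Nrn1 had a log2 fold change of −0.70 (SE 0.68, FDR 0.575). All 3 varied more within a region than between regions.

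The same regions were also compared in saline rats, in 8 libraries that the METH comparison did not use. There too 0 of 14446 genes were called by edgeR's quasi-likelihood test, the lowest FDR was 0.0568, and 1571 genes were nominal (10.9%), 454 higher in NAc Sal (3.14%) and 1117 lower (7.73%). A total of 1568 genes nominally lower in NAc METH were tested in both. Of these, 1523 (97.1%) had the same sign in saline, beside 51.7% of all genes. In saline 609 were nominally lower too, which is 38.8% of the METH genes and 56.6% of the 1076 saline genes. Of the 1194 nominally higher in NAc METH, 1125 (94.2%) had the same sign, beside 48.3% of all genes. In saline 199 were nominally higher too, 16.7% of the METH genes and 44.0% of the 452 saline genes. No run name in the headers covered both NAc Sal and SVZ Sal libraries, so run and region cannot be told apart in these signs either.

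By gene group, 28 of the 29 list medians had the same sign with and without METH. The median of the motile cilium genes was −1.51 in saline against −1.93 with METH, with 14 of 31 nominally lower (7.73% of all genes in saline), and that of the proliferation genes was −0.83 with 8 of 17 nominally lower. The medium spiny neuron genes had a median of 0.25 in saline against 0.94, and the oligodendrocyte genes −0.26 against −1.14, with 0 nominal genes of either list in saline. The fibroblast and meninges genes had opposite signs, −1.12 in saline, with 6 of 7 nominally lower (7.73% of all genes in saline), and 0.49 with METH. The METH sign rested on single libraries, since the median was −0.29 without NAc METH 4 and 1.21 without SVZ METH 3. Cholinergic genes had a median of 1.72 in saline, with 6 of 8 nominally higher (3.14% of all genes), Lhx8 among them at 2.43.

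Whether a difference between regions itself differed with treatment was tested as an interaction in all 16 libraries. No gene passed (0 of 15111, lowest FDR 1.00), and 197 genes were nominal (1.3%). Elovl2 had an interaction p of 0.000881 and Akr1c19 of 0.00308, both with an FDR of 1.00 by edgeR's quasi-likelihood test. The log2 fold change of Elovl2 was 0.84 with METH and 0.19 in saline, and that of Akr1c19 was −1.68 and −0.24. Some of the genes named above had close values in both, with −3.97 and −3.82 for Grid2ip and −2.43 and −2.13 for Zic1 (METH first). The values were −4.30 and −3.80 for Prkcd, −1.75 and −1.65 for P2rx6, and −0.54 and −0.50 for Trir. Others lay farther apart, with 2.65 and 0.59 for Htr4 and 1.65 and 0.45 for Fam19a2. Fcrl2 had 1.38 and 0.46, and Cck −2.95 and −1.85. In saline, Cck measured 354, 36.1, 22.3 and 17.9 CPM in SVZ Sal 1 to 4 and 5.02 to 80.5 CPM in NAc Sal. The thalamic list, which holds Prkcd, summed to 1880, 125, 178 and 293 CPM in SVZ Sal 1 to 4 and 83.5 to 194 CPM in NAc Sal. Both the Cck level and that sum were thus high mainly in SVZ Sal 1. For Htr4, Fam19a2 and Fcrl2 the interaction p was 0.0349 to 0.0455 by edgeR's quasi-likelihood test.

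**Figure D5:**
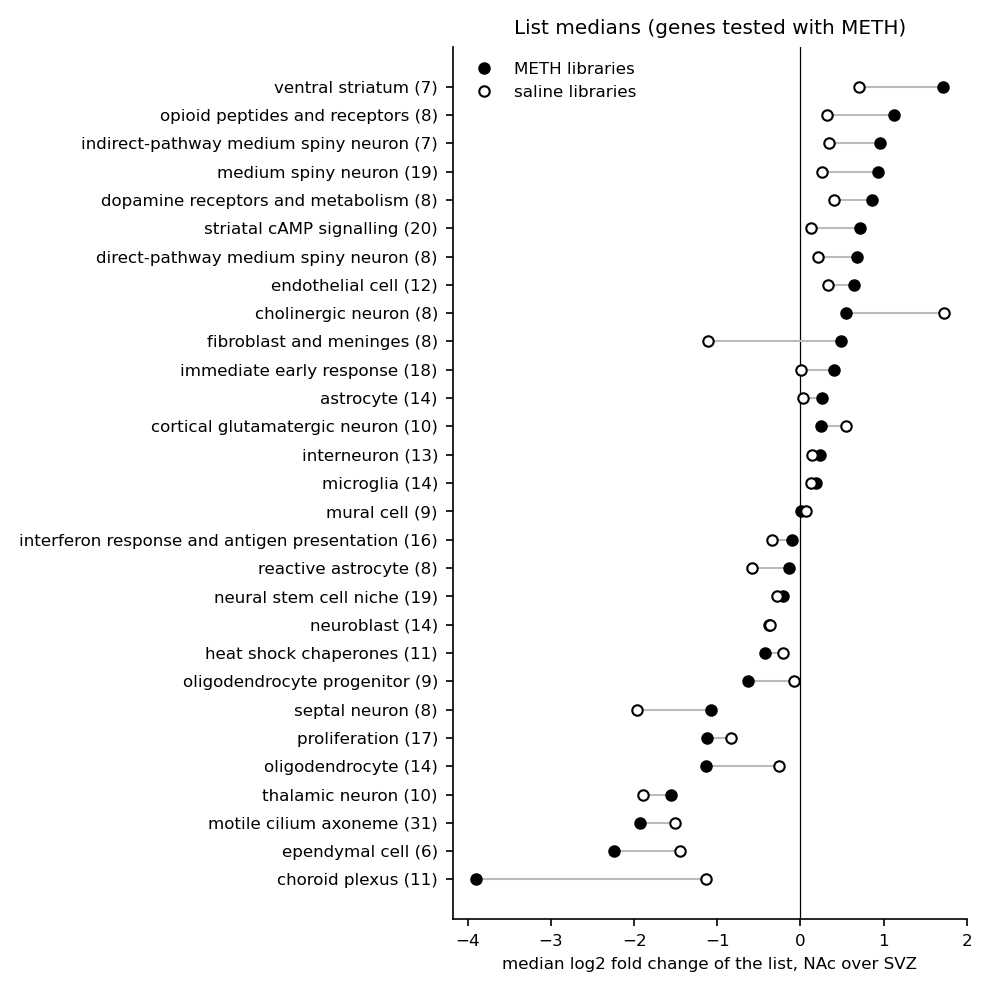
Median log2 fold change (NAc over SVZ, x axis) of 29 gene lists (y axis, genes tested with METH in parentheses) in the METH libraries (filled circles) and the saline libraries (open circles). Both circles lie on the same side of 0 for 28 lists, with the fibroblast and meninges list as the exception (0.49 with METH, −1.12 in saline), and they are farthest apart for the choroid plexus list.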

How the data were processed

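Total RNA was depleted of ribosomal RNA, made into libraries with the Tecan Universal Plus mRNA-seq kit and read in pairs. The authors deposited whole-number read counts per gene, not normalized. Per the labels and file headers these came from cutadapt 2.7, FastQC 0.11.4, STAR 2.5.2b on rn6 and featureCounts 1.6.3, summed by gene name without strand and with an Ensembl annotation, where the methods name UCSC. Reads of overlapping, antisense or near-identical genes cannot be separated, and 171 gene names lie on several chromosomes. In the methods, counts were scaled by upper quartile and adjusted with RUVr, and genes with an FDR under 0.01 and over 2-fold were called. The number of RUVr factors is not given in the sources used here.

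The 8 METH libraries were fitted here with edgeR 4.0.16 (quasi-likelihood test, upper-quartile scaling, filterByExpr, group alone), with Benjamini-Hochberg adjustment over all genes tested, and calls were counted on chromosomes 1 to 20. The SE was taken from the F statistic as the absolute log2 fold change over its root. Saline libraries had the same fit, and all 16 gave the interaction. CPM used upper-quartile sizes of the 16 libraries, in which 1 read of a METH library is 0.0470 to 0.0953 CPM. R was 4.3.3, limma 3.58.1, DESeq2 1.42.0, Python 3.11.15, and its packages matplotlib 3.10.9, scipy 1.17.1, pandas 2.3.3 and numpy 2.4.6.

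The genes, the 29 lists and the comparison were chosen with earlier results of these data known. Up to 4 members per list with the smallest p were named, then the 12 genes with the smallest p in each direction whose groups did not overlap (at least 5 CPM in the higher group, no provisional symbol, and 1 gene with a higher level in NAc METH not reported here), then Tac1, Neurod1, Rtn4rl2, P2rx6, Gfap, Nrn1 and Drd1. Ppp1r1b, Dnai2, Tekt1 and Dnah11 are outside this rule and were named after their values were seen. Alternatives changed scaling, tool, filter, threshold, RUVr factors, samples and replicates. The splits of the SVZ METH libraries by EXTRA were added after seeing the data. Data for the METH comparison were simulated with 15000 genes at a common dispersion of 0.096, and recovered genes were counted by FDR alone. The quasi-likelihood test found 12 of 100 genes changed 2-fold and 100 of 100 changed 4-fold, with 1 wrong call. DESeq2 found 22 and 100, with 6 wrong calls. A common dispersion leaves out the uneven libraries described above, so these shares do not give the power of the real comparison. In the real fit Grid2ip (log2 fold change −3.97, FDR 0.0731) and Prkcd (−4.30, FDR 0.0799) were not called. Hippocampal libraries were used only in the fit of all 32 libraries.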

Additional observations from a re-analysis of the deposited data

Results flagged for a closer look

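In a group of 4 libraries, a library is listed here when its gap to the nearest other takes a larger share of the group's range than Dixon's critical value at the 95% level. The levels of 98 genes and the sums of 29 lists were looked at in NAc METH and in SVZ METH, 254 group tests in all, and chance flags about 1 in 20. In NAc METH 3, low levels were flagged for Drd1 (7.45 CPM) and Tac1 (19.4 CPM), and for the sums of the medium spiny neuron (991 CPM), indirect-pathway (189.7 CPM) and opioid (345 CPM) lists. High levels in the same library were flagged for Zic1 (32.9 CPM), Sp8 (2.98 CPM), Dnah6 (2.06 CPM), Ak7 (0.781 CPM), Mag (458 CPM), Ddc (15.6 CPM), Slc1a3 (871 CPM), Enpp2 (219.9 CPM), Ttr (8.37 CPM), Clic6 (4.12 CPM) and Slc4a5 (1.28 CPM). Its oligodendrocyte (10590 CPM), astrocyte (8681 CPM), thalamic (374 CPM) and choroid plexus (277 CPM) sums were high as well.

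SVZ METH 3 was high in the choroid plexus genes Ttr (7565 CPM), Clic6 (342.5 CPM) and Slc4a5 (106 CPM), in the sum of that list (10630 CPM) and of the fibroblast and meninges list (577 CPM), and in Notch2 (222.5 CPM). SVZ METH 1 was high in Cenpf (40.6 CPM), Kif11 (13.5 CPM), Sox2 (121 CPM), Neurod1 (8.82 CPM) and Rtn4rl2 (19.8 CPM), and in the sum of the proliferation list (321 CPM). In SVZ METH 2, Rnft2 (76.7 CPM) and Flt1 (49.0 CPM) were flagged.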

How the results depend on the processing

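The count of 0 genes called between NAc METH and SVZ METH held under TMM scaling, without a filter on low counts, with CPM above 1 in 4 libraries, with autosomal genes only, at an FDR under 0.05 with any fold, at 1.5-fold, and with the count matrix of the series. It moved to 156 by DESeq2 (51 higher, 105 lower), 106 by the edgeR likelihood ratio test, 111 with 1 RUVr factor, 263 with 2 factors, 8 with all 32 libraries in one fit, 1 by limma voom and 2 with the SVZ METH libraries of a shared number summed. With only the SVZ METH libraries without EXTRA in their name it was 30 (1 higher, 29 lower), and with only those with EXTRA 120 (25 and 95). Leaving out a library gave 0 to 2 calls: Zic1 and Igfbp5 without NAc METH 3 and Shox2 without SVZ METH 1. Of the genes chosen after their values were seen, Igfbp5 had a log2 fold change of −2.002 (FDR 0.123) in all 8 libraries. Shox2 was not tested there, with 0.0541, 98.7, 50.8 and 78.8 CPM in SVZ METH 1 to 4 and 0 to 0.142 CPM in NAc METH. The voom call was AABR07044362.6, with 24 to 37 reads in NAc METH and 0 in SVZ METH. In saline, DESeq2 called 41 genes, the likelihood ratio test 29 and the fit of all 32 libraries 4, while leaving out a library gave 0. The interaction stayed at 0 under every alternative run.

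The 2814 nominal genes moved to 5017 with 2 RUVr factors and 4945 with only the EXTRA libraries, and ranged from 1817 (without NAc METH 4) to 3969 (without SVZ METH 1). Deviations of same-numbered METH libraries correlated at −0.307 to 0.218. These correlations use replicate order only and cannot tell whether libraries of the 2 regions share rats. With the replicate number as a block, 0 genes were called and 1974 were nominal (lowest FDR 0.134). The run name in the headers was not used as a covariate, since no such name covers both regions. Of the 98 genes followed, 91 kept their direction in every alternative that tested them, which was all 23 except for Dnai2 (17, not that with only the EXTRA libraries) and Ak7 (22). Exceptions were Neurod1 (−0.64 without the EXTRA libraries, −0.27 to 2.30 on leaving out a library), Rtn4rl2 (−0.63, and −0.18 to 4.10), Nrn1 (0.39) and Ppp1r1b (−0.17) without the EXTRA libraries, and Gfap (0.032, and −0.37 to 0.18 on leaving out a library), Ccdc153 (0.67) and Dnah11 (0.59) with only the EXTRA libraries. The cause of these shifts was not tested. Most of the 98 genes were chosen for a small p in these same libraries, which favours a stable sign. The count of 91 is therefore no measure of how stable directions are, and the share over all genes was not computed.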

Other observations

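Gene length moved with the direction of the difference. Genes were split into 5 classes of equal size by length. In the class of the shortest genes (exons of 53 to 1327 bases), 13.1% were nominally lower and 6.39% nominally higher in NAc METH, against 9.08% and 11.8% in the class of the longest (4023 to 29464 bases). The median log2 fold change was −0.06 among the shortest and 0.05 among the longest. In saline the medians were −0.08 and 0.05.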
